A study of Homo sapiens with 6 samples.

Results

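Molecular chaperones and the protein-folding genes of the endoplasmic reticulum (ER) were followed in Jurkat cells, an established line from a human T cell acute lymphoblastic leukaemia. Members were taken by gene symbol, by a rule that uses no measured values but was chosen with earlier results of these data known. They were the heat shock families HSPA, HSPB, HSPD, HSPE, HSPH and HSP90 and the DNAJA, DNAJB and DNAJC genes. Also included were the chaperonin subunits named CCT with TCP1, the PDIA disulfide isomerases, and CALR, CANX, XBP1, ATF6 and ERN1. The rule found 92 members among 39012 genes. RNA-seq compared 3 libraries of Jurkat cells with stable overexpression of SCML4, which encodes a Polycomb-related protein, with 3 libraries of cells carrying an empty vector (EV). All 6 libraries came from stimulated cells, which had been given PMA at 100 ng/ml with ionomycin at 1 µM for 6 h, agents that mimic T cell receptor signalling. Unstimulated cells were not analysed here. The labels do not say which vector or promoter was used, whether each line was a clone or a pool, or whether replicate libraries represent separate cultures. The p-values below therefore measure the spread between libraries, which may be technical.

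Chaperones hold unfolded or nascent proteins and let them fold. HSP70 proteins, encoded by HSPA genes, bind and release short stretches of unfolded chain in a cycle of ATP hydrolysis that J-domain proteins of the DNAJ families stimulate. HSP90 acts later on nearly folded clients, among them kinases and steroid receptors, and the CCT chaperonin, also called TRiC, encloses proteins such as actin and tubulin. In the ER, the HSP70 protein BiP (HSPA5), the lectins calnexin and calreticulin (CANX and CALR) and the PDIA enzymes fold secreted and membrane proteins. The sensors IRE1 (ERN1) and ATF6 and the transcription factor XBP1 raise these ER genes when unfolded proteins accumulate, and heat shock factor 1 (HSF1) raises the cytosolic set.

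No chaperone gene passed the test between SCML4 and EV libraries. Of the 92 members, 6 had no read in any library, namely HSPA7, DNAJB3, HSPB2, HSPB3, HSPB7 and HSPB8. Another 10 had reads but a mean under the filter of 0.5 FPKM (reads scaled by gene length and library size), and 76 were tested. By limma-trend on log2(FPKM + 1), with Benjamini-Hochberg adjustment over all 15357 genes, 0 of 76 members had an adjusted p under 0.05, and the lowest adjusted p of a member was 0.905. The share called among all genes was 0% as well. At an unadjusted p under 0.05 stood 4 of the 76 members, or 5.26%, beside 5.09% of all genes. These 4 were HSPA6, DNAJC4, XBP1 and CALR. Limma-voom with library weights on the recovered reads called 0.0989% of 14160 genes and 0 of the 74 members it tested. The lowest adjusted p of a member in that fit was 0.308. It used a separate filter, on reads, so its 74 members are not a subset of the 76, and HSPA6 was not tested in it.

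The fitted differences of the members lay on both sides of 0 and were small. SCML4 minus EV was positive for 39 members and negative for 37, a positive share of 51.3% beside 51.7% of all genes tested. The median difference was 0.01 on the log2 scale, the same as over all genes, and the interquartile range of the members ran from -0.09 to 0.09, against -0.09 to 0.11 over all genes. The 95% interval lay wholly within 1 log2 unit of 0 for 75 of the 76 members and within 0.5 for 64. For the 72 tested members with a mean of at least 10 reads, the median half-width of that interval was 0.26. With 3 libraries a group, a difference smaller than the gene's own half-width could not be told from 0. The adjusted test did not call larger ones either. HSPA6, at 0.71, was not called. SCML4 itself, the overexpressed gene, was at 1.88 in this fit, with an adjusted p of 0.0619 by limma-trend. On log2(CPM + 1) of the recovered reads it was at 5.55, so the FPKM scale understates its change. That 0 members were called therefore does not show that no member changed. In bulk RNA, fewer cells that express a gene and less of its RNA per cell cannot be told apart.

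**Figure D1:**
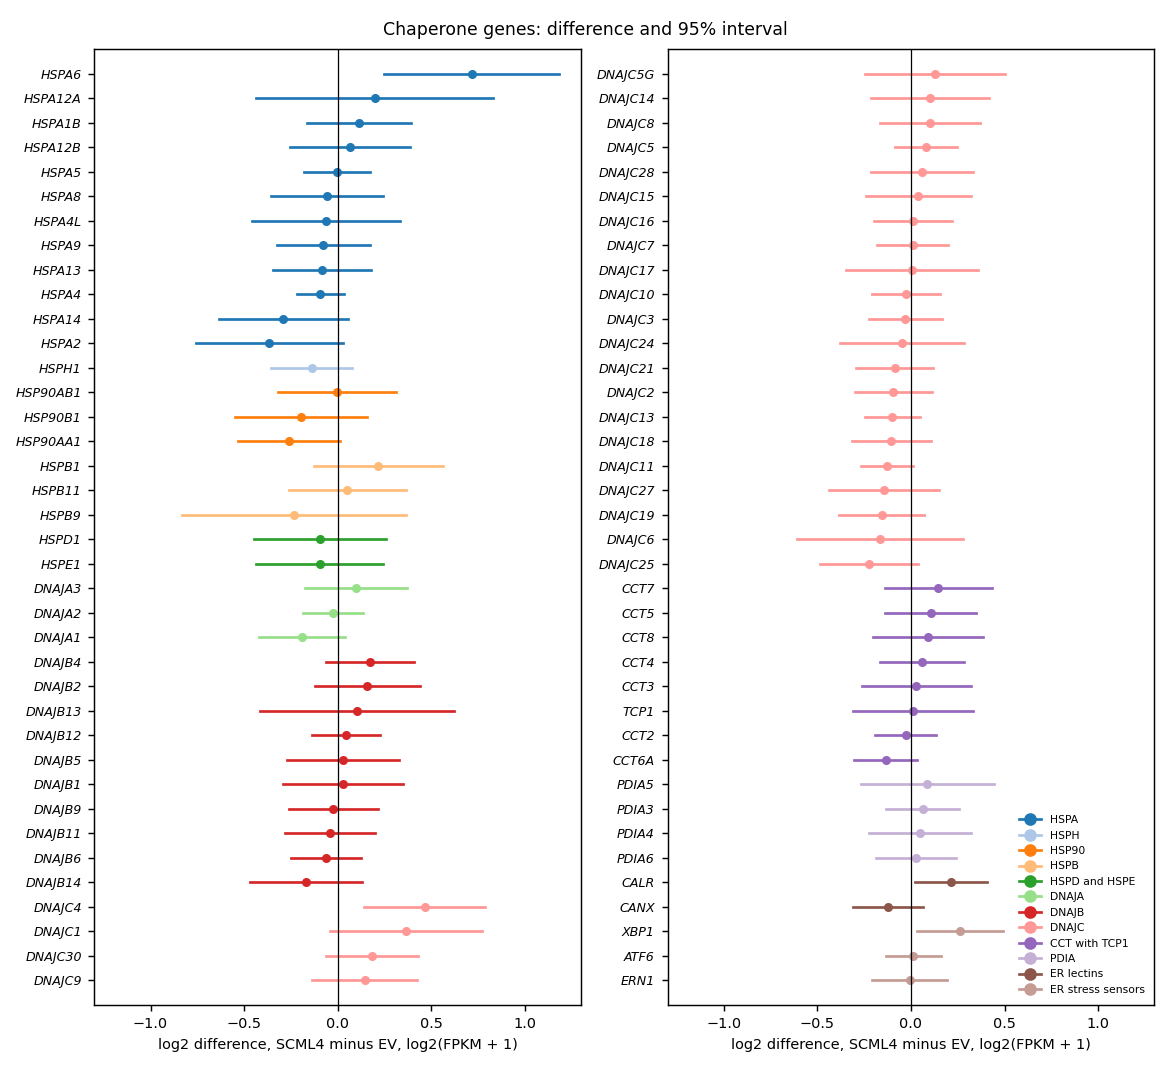
Fitted difference of each of the 76 chaperone genes tested, SCML4 minus EV on log2(FPKM + 1) (horizontal axis), with its 95% interval from limma-trend as a line and families by colour. Points lie on both sides of 0, with HSPA6 farthest right at 0.71 and HSPA2 farthest left at -0.37, and 4 intervals (HSPA6, DNAJC4, XBP1 and CALR) leave out 0.

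The groups did not overlap for a few members. All 3 SCML4 libraries lay above all 3 EV libraries for HSPA6, DNAJC1, DNAJC4, PDIA3, CALR and XBP1, which is 6 of 76 members, while 6.02% of all genes tested did so. All 3 SCML4 libraries lay below all 3 EV libraries for HSPA2, HSPA4, DNAJC11 and DNAJC13, 4 of 76 members beside 5.27% of all genes. Both shares are near those of all genes.

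The libraries held 8953671 to 10336597 reads, recovered from the steps of the deposited FPKM, and levels are stated in CPM, counts per 1000000 library reads. A count of 0 allows up to 3 reads, 0.290 to 0.335 CPM by library, for counting error only. SCML4 itself had 570, 657 and 506 reads in SCML4 libraries, against 7, 2 and 1 in EV libraries, which fits the labels. Its log2 difference on the FPKM scale was 1.88, with an adjusted p of 0.0619 by limma-trend. On log2(CPM + 1) of the reads it was 5.55, with an adjusted p of 1.64e-09 by limma-trend. T lineage markers were present in all libraries, with 12 of 12 above the filter and summed levels of 3658 to 3804 CPM in SCML4 and 3369 to 3636 CPM in EV. The markers LYZ, HBB, EPCAM and CDH1 of other cell types had 0 reads in every library, and MS4A1 and CD79B had at most 3. CD79A had 30.3 to 32.7 CPM in SCML4 and 21.5 to 33.3 CPM in EV. EV replicate 1 was an outlying library, at -38.61 on the first principal component where the other 5 scored 0.35 to 11.56. Its genes deviated with their GC content, Spearman rho -0.507 over 14147 genes against 0.045 to 0.288 in the others.

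Members' promoters were searched for the sequences that heat shock factors and the ER stress pathway are known to recognise, to show which genes carry them. The windows run from 250 bases before to 50 after each RefSeq start site on GRCh38.p14. They include 107 windows of 80 members among 35116 in all, and the motifs were chosen with the members' values known. A heat shock element of 3 alternating GAA and TTC units, each 2 bases from the next, in either order and on either strand, stood in 7 member windows (6.54%) and in 0.49% of all windows. Those 7 belonged to HSPA8, HSP90AA1, HSP90AB1, HSPA6, HSPD1, DNAJA1 and DNAJB6. An ER stress element, the bases CCAAT and CCACG with 9 bases between them, on either strand, stood in 8 member windows (7.48%), of HSPA5, HSP90B1, CALR, CANX, PDIA6 and XBP1, and in 0.0769% of all windows. A match describes letters, not a bound site. The shorter heat shock element of 2 such units, which the longer one contains, was in 25.2% of member windows and 13.5% of all. HSPA1A, HSPA1B, DNAJB1 and HSPB1 matched only this shorter form. The search counted exact matches, so a gene without a 3-unit match may still carry an inexact element. Bases ATTGG and CCACG with 1 base between them were in 0 member windows, and an XBP1 element of 8 bases was in 1, of DNAJC10.

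For 4 of the heat shock genes and 5 of the ER genes, the stretch around the match nearest to the start site follows on the gene's own strand, 5′ to 3′, with the match in capitals. HSPA8 is at chr11:123062161-123062209 on the minus strand, HSP90AA1 at chr14:102087102-102087150 on the minus strand, HSPA6 at chr1:161524448-161524496 on the plus strand and DNAJB6 at chr7:157336855-157336903 on the plus strand. Among the ER genes, HSPA5 is at chr9:125241373-125241427 on the minus strand, XBP1 at chr22:28800585-28800639 on the minus strand and CALR at chr19:12938366-12938420 on the plus strand. HSP90B1 is at chr12:103930303-103930357 on the plus strand and PDIA6 at chr2:10812835-10812889 on the minus strand. In CALR and HSP90B1 the element lies in the opposite orientation.
HSPA8: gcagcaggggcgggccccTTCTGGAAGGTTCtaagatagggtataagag
HSP90AA1: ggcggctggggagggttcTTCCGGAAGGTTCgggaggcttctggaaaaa
HSPA6: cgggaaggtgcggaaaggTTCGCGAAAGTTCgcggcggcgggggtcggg
DNAJB6: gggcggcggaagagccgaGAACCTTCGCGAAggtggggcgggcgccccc
HSPA5: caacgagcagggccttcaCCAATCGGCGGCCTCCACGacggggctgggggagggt
XBP1: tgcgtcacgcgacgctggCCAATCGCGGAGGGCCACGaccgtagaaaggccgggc
CALR: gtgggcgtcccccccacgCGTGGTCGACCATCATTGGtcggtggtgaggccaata
HSP90B1: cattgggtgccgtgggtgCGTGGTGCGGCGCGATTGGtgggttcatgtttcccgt
PDIA6: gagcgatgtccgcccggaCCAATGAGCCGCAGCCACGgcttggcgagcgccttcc

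Genes that carried these elements were not called, like the other members. Of the 7 with the 3-unit heat shock element, the difference SCML4 minus EV was positive for 1 (HSPA6) and negative for 6, with a median of -0.07. Without SCML4 replicate 3 it was positive for 4 of the 7, so the split of signs changed with that library. Without EV replicate 1 it was again positive for 1. With reads corrected for GC content and length it was positive for 0, with no corrected value for HSPA6. Of the 6 with the ER stress element, it was positive for 3 (CALR, XBP1 and PDIA6) and negative for 3 (HSPA5, HSP90B1 and CANX), with a median of 0.01.

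Chaperone RNA took between 1.08% and 1.31% of the reads of each library. All 92 members together held 1.31%, 1.21% and 1.08% of the reads of the SCML4 libraries and 1.22%, 1.21% and 1.29% of those of the EV libraries. The ranges overlapped, and SCML4 replicate 3 was the lowest of the 6. The means were 1.20% ± 0.117 in SCML4 and 1.24% ± 0.0431 in EV (SD, n = 3 each), with an exact two-sided permutation p of 0.7, where 3 against 3 libraries cannot go below 0.1. The members with most reads, HSPA8 and HSP90AA1, together gave 24.5% to 27.5% of member reads in SCML4 libraries and 26.7% to 28.7% in EV libraries.

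Between genes, levels can be set side by side only per length. The lengths implied by the deposited FPKM are not those of the genes (Spearman rho 0.0241 over 86 members), so CPM was divided by the kilobases of GENCODE exon. On this scale, averaged over all 6 libraries, HSPA8, the constitutive cytosolic HSP70, was highest at 361 CPM per kilobase, followed by HSP90AB1 at 314 and HSP90AA1 at 291. The stress-inducible HSPA1B reached 10.0 CPM per kilobase, and the testis-enriched HSPA2 reached 0.351. How reads were divided between HSPA1B and its near-identical copy HSPA1A is uncertain, so the level of either may be understated. In the ER, CALR stood at 205 CPM per kilobase, CANX at 127, HSPA5 at 106, PDIA4 at 70.1, HSP90B1 (GRP94) at 44.0 and XBP1 at 34.4. The mitochondrial chaperonin HSPD1 (HSP60) was at 107 CPM per kilobase, and its partner HSPE1 (HSP10) was at 10.9. The order depends on the length used: over the longest transcript, HSPA8 stood at 712, HSP90AA1 at 436 and HSP90AB1 at 350 CPM per kilobase, which exchanges the 2 HSP90 genes. Several of these genes, HSPA8, HSP90AB1, HSPD1 and HSPE1 among them, have processed pseudogenes in the genome, and how reads that match both were counted is not stated.

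Subunits of single complexes also differed in length-scaled level. Of the 8 CCT subunits, which the assembled chaperonin holds in equal number, CCT7 had 99.1 CPM per kilobase and CCT3 75.8, while CCT5 had 17.9 and CCT8 had 17.7. Among J-domain proteins, DNAJA1 at 102 and DNAJB1 at 78.3 CPM per kilobase led. DNAJC5, known as cysteine string protein, was the highest DNAJC gene at 41.0. All other DNAJC genes lay at 11.9 CPM per kilobase or lower, except DNAJC8 at 23.3.

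**Figure D2:**
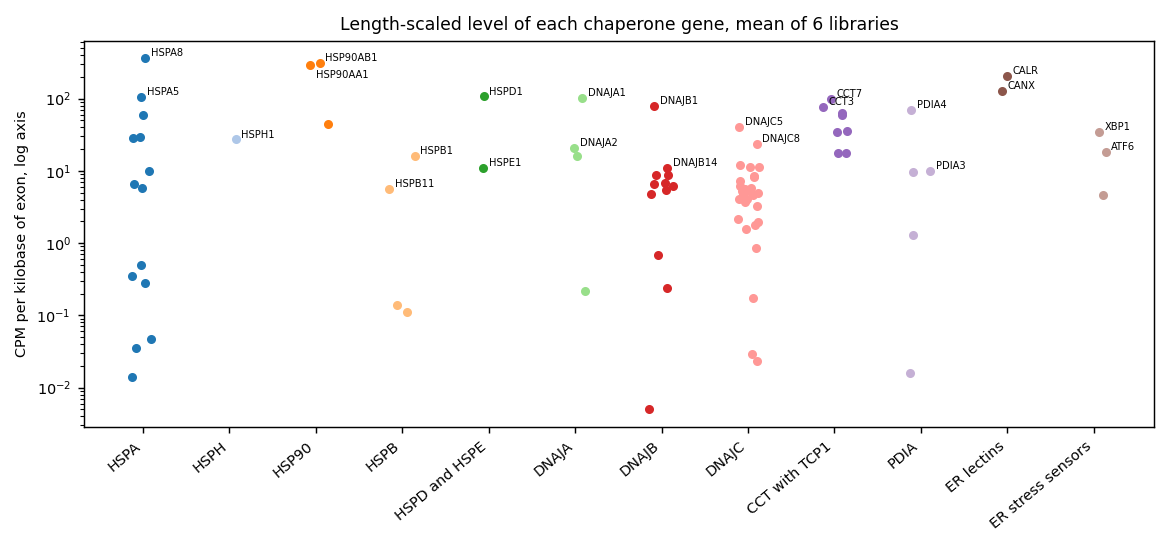
Length-scaled level of each of the 86 chaperone genes with a read, as the mean CPM per kilobase of GENCODE exon over 6 libraries (vertical axis, log scale), by family (horizontal axis), with the highest 2 of each family named. The HSPA genes span from HSPA8 at 361 to HSPA1A at 0.014, while the 8 CCT genes stay between 17.7 and 99.1. HSPA1A rests on 2 reads, and how reads were divided between it and its near-identical copy HSPA1B is uncertain.

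Cytosolic HSP70 and HSP110 genes overlapped between groups in most cases. HSPA8 had 1999.6, 1728 and 1444 CPM in SCML4 libraries, against 1772, 1655 and 1918 CPM in EV libraries. The SCML4 libraries held both the highest and the lowest of the 6 values, and the log2 difference was -0.06 (SE 0.13, interval -0.36 to 0.24). HSPA4, an HSP110 family member that exchanges nucleotide on HSP70, had 307, 297 and 289 CPM in SCML4 libraries and 316, 315 and 322 CPM in EV libraries. Every SCML4 value of HSPA4 was lower, but by a log2 difference of only -0.09 (SE 0.05), with an unadjusted p of 0.115 by limma-trend. HSPH1 (HSP105), of the same exchange family, averaged 217 ± 21.7 CPM in SCML4 and 239 ± 8.85 CPM in EV (SD, n = 3 each), and the groups overlapped.

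HSPA6, a strictly stress-inducible HSP70, had the largest difference of any member tested and very few reads. It had 12, 8 and 8 reads in SCML4 libraries, against 3, 2 and 5 in EV libraries. The groups did not overlap, and the log2 difference was 0.71 (SE 0.19), with an unadjusted p of 0.00919 and an adjusted p of 0.905 by limma-trend. HSPA2 lay the other way, with 18, 11 and 16 reads in SCML4 libraries and 25, 22 and 22 in EV libraries, without overlap, and a log2 difference of -0.37 (SE 0.16). HSPA14, a ribosome-bound HSP70, averaged 15.7 ± 1.10 CPM in SCML4 and 19.5 ± 3.51 CPM in EV (SD, n = 3 each), with groups that overlapped. HSPA1B had 226 to 270 reads in SCML4 libraries and 208 to 258 in EV libraries. Its near-identical copy HSPA1A had 0 reads in all SCML4 libraries and 2, 0 and 0 in EV libraries, so how reads were divided between the copies is uncertain. Of the 12 HSPA genes tested, the difference was positive for 4 and negative for 8, with a median of -0.06. Without SCML4 replicate 3 it was positive for 7 of the 12, with a median of 0.04.

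HSP90AA1, the inducible cytosolic HSP90, was the second most read member. It had 1609, 1373 and 1204 CPM in SCML4 libraries, against 1646, 1562 and 1783 CPM in EV libraries. SCML4 replicate 2 and replicate 3 lay below all EV values, and SCML4 replicate 1 lay within them. The log2 difference was -0.26 (SE 0.11, interval -0.53 to 0.01), with an unadjusted p of 0.0572 and an adjusted p of 0.905 by limma-trend, and it was -0.16 without SCML4 replicate 3. The constitutive HSP90AB1 averaged 937 ± 146 CPM in SCML4 and 935 ± 87.8 CPM in EV (SD, n = 3 each). HSP90B1 had 212, 209 and 157 CPM in SCML4 libraries and 254, 201 and 206 CPM in EV libraries, with groups that overlapped and a log2 difference of -0.20 (SE 0.15). All 3 HSP90 genes had a negative difference, though HSP90AB1, at -0.01, was positive without SCML4 replicate 3, and their median of -0.20 was then -0.06.

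**Figure D3:**
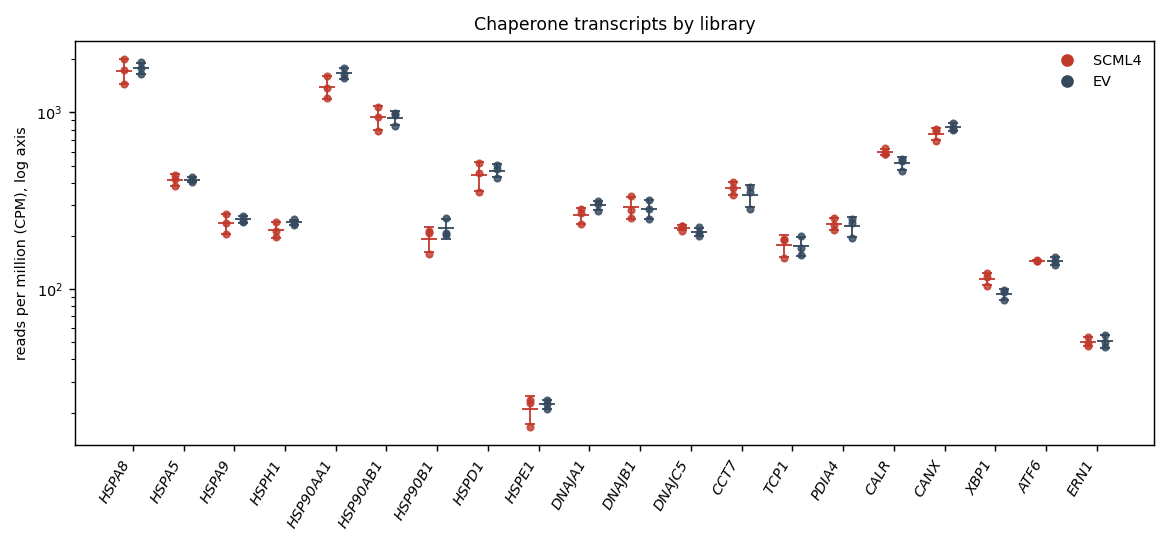
Level of 20 chaperone genes in each library as CPM (vertical axis, log scale), SCML4 libraries left of EV libraries for each gene (horizontal axis). Points are libraries, and bars are the mean ± SD of 3. The groups overlap for all genes shown except CALR and XBP1, where the 3 SCML4 points lie above the 3 EV points.

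In mitochondria, HSPD1 had 518, 456 and 354 CPM in SCML4 libraries and 501, 426 and 479 CPM in EV libraries. HSPE1 had 23.6, 22.6 and 16.6 CPM in SCML4 libraries and 23.5, 22.4 and 20.9 CPM in EV libraries. For both genes SCML4 replicate 1 was the highest and SCML4 replicate 3 the lowest of the 6. Their log2 differences were -0.09 and -0.10, and both became 0.06 without SCML4 replicate 3. HSPA9 (mortalin), the mitochondrial HSP70, averaged 236 ± 30.6 CPM in SCML4 and 248 ± 11.0 CPM in EV (SD, n = 3 each), and its groups overlapped.

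Small heat shock proteins were mostly silent in these cells. Of 8 HSPB genes, 4 had no read and HSPB6 was under the filter, with at most 2 reads in SCML4 libraries and 6 in EV libraries. HSPB1 (HSP27) had 25.8, 27.4 and 31.3 CPM in SCML4 libraries and 19.9, 28.5 and 24.6 CPM in EV libraries, with groups that overlapped. Its log2 difference was 0.22 (SE 0.14), and 0.08 without EV replicate 1, which was its lowest library. HSPB11, whose product belongs to the transport machinery of cilia and not to the chaperones proper, had a difference of 0.05. HSPB9 rested on 1 to 4 reads in SCML4 libraries and 2 to 4 in EV libraries.

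J-domain genes made up 38 of the 76 members tested, 3 DNAJA, 10 DNAJB and 25 DNAJC genes. The difference was positive for 20 of them and negative for 18. DNAJC4 had 14.9, 19.7 and 17.1 CPM in SCML4 libraries, against 10.7, 12.8 and 13.6 CPM in EV libraries. The groups did not overlap, and the log2 difference was 0.46 (SE 0.13), with an unadjusted p of 0.0123 and an adjusted p of 0.905 by limma-trend. DNAJC1, a J protein of the ER membrane, also stood higher in all SCML4 libraries, at 12.4, 14.5 and 12.5 CPM, against 11.1, 7.69 and 11.9 CPM in EV libraries, with a log2 difference of 0.36 (SE 0.17). DNAJC11, which resides at the mitochondrial outer membrane, had 56.5, 53.8 and 56.4 CPM in SCML4 libraries and 61.0, 60.3 and 60.7 CPM in EV libraries. Its groups were apart, with a log2 difference of -0.13 (SE 0.06). DNAJC13, which works on endosomes, was likewise lower in every SCML4 library, by a log2 difference of -0.10 (SE 0.06), and DNAJC25 overlapped between groups at -0.23 (SE 0.11).

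Among the abundant J proteins that partner cytosolic HSP70, DNAJA1 had 284, 269 and 232 CPM in SCML4 libraries and 315, 278 and 301 CPM in EV libraries. SCML4 replicate 1 lay above EV replicate 2, so the groups overlapped, and the log2 difference was -0.19 (SE 0.09). DNAJB1 (HSP40), an HSF1 target, averaged 290 ± 42.7 CPM in SCML4 and 285 ± 35.0 CPM in EV (SD, n = 3 each). DNAJA3, the mitochondrial J protein, averaged 117 ± 12.7 CPM in SCML4 and 109 ± 11.0 CPM in EV. DNAJB4 at 0.17, DNAJB14 at -0.17 and DNAJC5 at 0.08 on the log2 scale overlapped between groups as well, and were at 0.08, -0.03 and 0.05 without EV replicate 1.

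The groups overlapped for every CCT subunit. The difference was positive for 6 of the 8 and negative for CCT2 and CCT6A, with a median of 0.04. Without SCML4 replicate 3 the median was 0.13 and without EV replicate 1 it was -0.01, so neither its size nor its sign held. CCT7 had 406, 371 and 342 CPM in SCML4 libraries and 286, 355 and 376 CPM in EV libraries, with groups that overlapped, and a log2 difference of 0.15 (SE 0.12) that was 0.03 without EV replicate 1. CCT6A lay the other way at 232, 216 and 206 CPM in SCML4 libraries and 231, 242 and 244 CPM in EV libraries. Its log2 difference was -0.13 (SE 0.07), and SCML4 replicate 1 lay within the EV range. TCP1, the founding subunit, averaged 177 ± 24.2 CPM in SCML4 and 175 ± 21.7 CPM in EV (SD, n = 3 each).

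In the ER the lectins calreticulin and calnexin had differences of opposite sign. CALR, the soluble lectin, had 626, 582 and 585 CPM in SCML4 libraries, against 468, 543 and 533 CPM in EV libraries. All SCML4 values were higher, by a log2 difference of 0.22 (SE 0.08, interval 0.02 to 0.41), with an unadjusted p of 0.0335 and an adjusted p of 0.905 by limma-trend. EV replicate 1 was its lowest library, and without it the difference was 0.15. CANX, the membrane-bound lectin, had 802, 785 and 690 CPM in SCML4 libraries and 874, 798 and 806 CPM in EV libraries. Its groups overlapped through SCML4 replicate 1, and its log2 difference was -0.12 (SE 0.08).

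XBP1, the transcription factor that IRE1 activates by splicing, had 123, 117 and 104 CPM in SCML4 libraries, against 86.3, 98.5 and 96.8 CPM in EV libraries. The groups did not overlap, and the log2 difference was 0.26 (SE 0.10, interval 0.03 to 0.49), with an unadjusted p of 0.0320 and an adjusted p of 0.905 by limma-trend. Leaving out EV replicate 1 gave 0.21, and correcting reads for GC content and length gave 0.31. These gene totals do not separate spliced from unspliced XBP1. The sensors showed much smaller differences, with ATF6 averaging 145 ± 1.69 CPM in SCML4 and 144 ± 7.68 CPM in EV, and ERN1 50.4 ± 3.06 CPM in SCML4 and 50.7 ± 3.98 CPM in EV (SD, n = 3 each).

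HSPA5, the most used marker of ER stress, had 444, 422 and 381 CPM in SCML4 libraries and 402, 416 and 432 CPM in EV libraries. The groups overlapped fully, and the interval of its log2 difference ran from -0.18 to 0.17. The PDIA enzymes, which form and exchange disulfide bonds, all had a positive difference, 4 of 4 tested, from 0.03 to 0.09 on log2(FPKM + 1). PDIA4 was negative at -0.06 without EV replicate 1. PDIA5, the largest, was at 0.17 (SE 0.18) on log2(CPM + 1) of the reads. PDIA3 (ERp57), the partner of both lectins, had 45.0, 42.7 and 42.1 CPM in SCML4 libraries and 40.5, 41.4 and 41.4 CPM in EV libraries. These groups were narrowly apart, with an unadjusted p of 0.467 by limma-trend. PDIA4, PDIA5 and PDIA6 overlapped between groups.

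Chaperone genes also varied within the groups. By the range of the family mean, the spread was wider within SCML4 than within EV in every family except HSPA and DNAJC. SCML4 replicate 1 was the highest of the 6 libraries for 27 of the 76 members (35.5%), where 15.5% of all genes had their highest value in it. SCML4 replicate 3 was the lowest for 21 members (27.6%), where 15.7% of all genes had their lowest value in it. EV replicate 1 was the lowest for 21 members and the highest for 21, close to its share among all genes, 26.6% and 27.1%. The pattern differed by family. The mean deviation of the 3 HSP90 genes from their 6-library mean, on log2(CPM + 1), was 0.12, -0.03 and -0.32 in SCML4 replicates 1, 2 and 3 and 0.09, 0.03 and 0.12 in EV replicates 1, 2 and 3. HSPD1 with HSPE1 spread in the same order, from 0.16 in SCML4 replicate 1 to -0.35 in SCML4 replicate 3. The HSPB genes tested went the other way, at -0.07, -0.09 and 0.23 in SCML4 replicates 1, 2 and 3. The 8 CCT subunits stood at 0.11, 0.05 and -0.11 in SCML4 and at -0.05, -0.04 and 0.04 in EV. The 25 DNAJC genes stayed between -0.01 and 0.02 in SCML4 and between -0.04 and 0.02 in EV. The mean of all genes tested stayed between -0.01 and 0.02 in SCML4. Means of many genes vary less than means of few, so these values set no scale for the smaller families. The 12 HSPA genes spread more within EV, from -0.07 to 0.06, than within SCML4, from -0.05 to 0.05. Over all genes, SCML4 replicates 1 and 3 were the most unlike pair of their group, with a chi-square per gene of 5.64, while EV replicate 1 differed more from the other EV libraries, at 11.04 and 11.08. What separated these libraries was not tested.

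**Figure D4:**
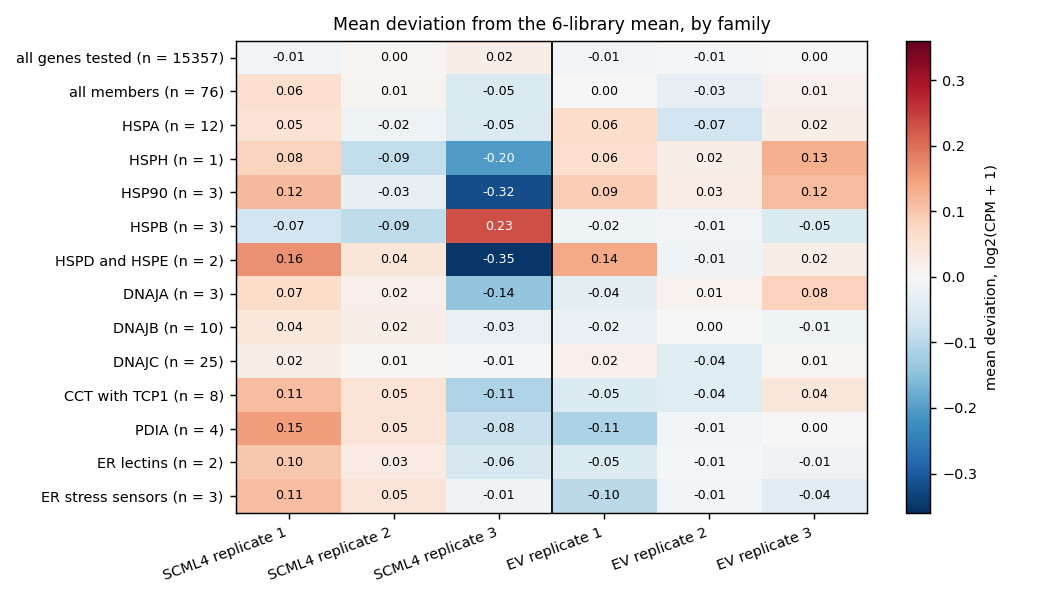
Mean deviation of each chaperone family from its 6-library mean, on log2(CPM + 1) (colour and printed value), by library (columns, SCML4 left of EV) and family (rows, with the number of genes tested). SCML4 replicate 3 is at -0.32 for HSP90 and -0.35 for HSPD and HSPE. The mean over all 15357 genes tested lies between -0.01 and 0.02, which does not show how far small groups of genes vary.

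The signed differences of the members, SCML4 minus EV, rose with GC content. Over 72 members, Spearman's rho between the GC content of the longest transcript and the difference on log2(CPM + 1) was 0.494, and over all 14147 genes it was 0.337. Members share the same 6 libraries, so these are descriptions across genes. Without EV replicate 1 the rho over the members was 0.146, and it was 0.144 with reads corrected for GC content and length. GC-rich members with a positive difference were nearer to 0 after the correction, DNAJC4 at 0.36, CALR at 0.16 and HSPB1 at 0.09. HSP90AA1, at -0.25 after it, moved little. The median over the tested members with a corrected value was 0.0004.

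**Figure D5:**
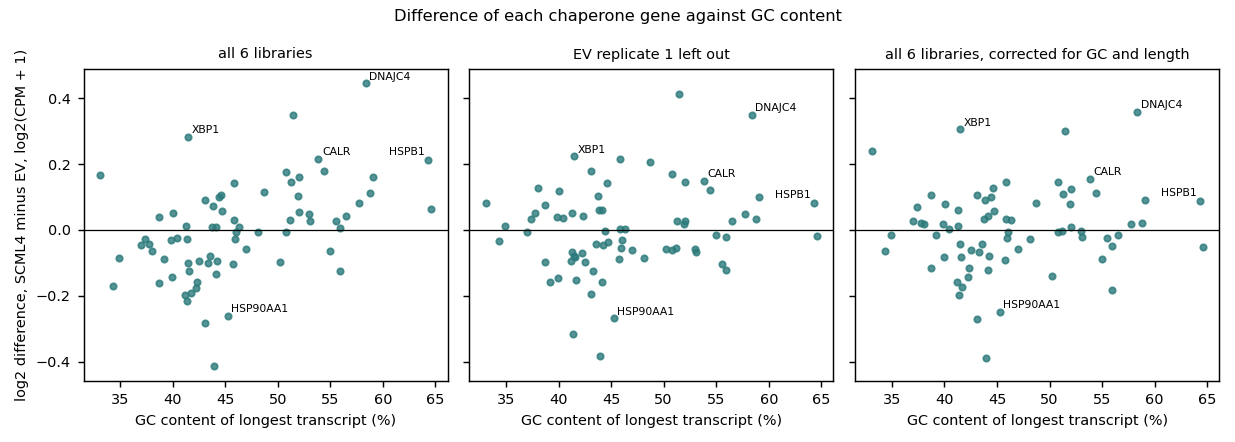
Difference SCML4 minus EV on log2(CPM + 1) of 72 chaperone genes (vertical axis) against the GC content of the longest transcript in percent (horizontal axis), with all 6 libraries (left), without EV replicate 1 (middle) and with all 6 libraries corrected for GC content and length (right). The upward tilt of the left panel, rho 0.494, is weaker in the other panels, at 0.146 and 0.144.

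Partner genes of the chaperone systems, listed by their roles, were also not called. In 7 lists with 93 genes tested, 0 had an adjusted p under 0.05 by limma-trend. Of 5 heat shock factors and their binding proteins, the difference was positive for 3 and negative for 2, and HSF1 had 177, 160 and 170 CPM in SCML4 libraries against 134, 158 and 159 CPM in EV libraries. Every SCML4 value of HSF1 was higher, if narrowly, and its log2 difference was 0.17 (SE 0.09), or 0.09 without EV replicate 1. HSBP1 and HSBP1L1, named for binding heat shock factor, both stood at -0.23 with overlapping groups, or -0.14 and -0.19 without EV replicate 1.

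Of 16 HSP90 cochaperones, 10 were positive and 6 negative, but without EV replicate 1 only 6 of the 16 were positive, and the median of 0.03 was then -0.03. An unadjusted p under 0.05 was reached by 3 of the 16, and by 7 of the 93 partner genes (7.53%), beside 5.09% of all genes. SUGT1, an adaptor of HSP90, had 94.9, 76.7 and 82.5 CPM in SCML4 libraries and 110, 107 and 107 CPM in EV libraries. Its groups did not overlap, and the log2 difference was -0.35 (SE 0.09), with an unadjusted p of 0.00852 and an adjusted p of 0.905 by limma-trend. Among 13 HSP70 exchange factors and adaptors, 6 were positive and 7 negative, with GRPEL2, the mitochondrial exchange factor, at -0.29 and ST13 at -0.21, the second of which was -0.12 without EV replicate 1. Of 10 prefoldin and CCT cofactors, 6 were positive and 4 negative, with PFDN6 at 0.37 and PFDN2 at 0.23, or 0.18 and 0.04 without EV replicate 1. Of 11 mitochondrial chaperones and proteases, 7 were positive and 4 negative, with CLPP at 0.38 with all libraries and 0.09 without EV replicate 1.

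ER genes for oxidative folding and glycoprotein quality control were split 13 positive and 4 negative of 17, with a median of 0.10 beside 0.01 over all genes. Without EV replicate 1, 10 of the 17 were positive, with a median of 0.06. ERP29, an ER folding factor, had 67.3, 61.4 and 65.6 CPM in SCML4 libraries and 47.1, 54.2 and 57.7 CPM in EV libraries. The groups were apart, and the log2 difference was 0.29 (SE 0.09), with an unadjusted p of 0.0212 and an adjusted p of 0.905 by limma-trend. P4HB, protein disulfide isomerase itself, stood at 0.15 (SE 0.07), again without overlap. Of 21 genes of ER-associated degradation and the unfolded protein response, 10 were positive and 11 negative, with EDEM3 at -0.22. ATF4 and DDIT3 (CHOP), the transcription factors of the PERK branch, were at 0.11 and -0.05 with overlapping groups. Neither sign held, since ATF4 was at -0.01 without EV replicate 1 and DDIT3 at 0.03 without SCML4 replicate 3.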

How the data were processed

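Groups were read from the sample titles of 3 SCML4 and 3 EV libraries. Per the labels' protocols, TRIzol RNA went into a SMARTer mRNA-seq kit. FastQC, STAR, SAMtools and hg19 appear without versions, per the submitters' processing notes. Which counter and annotation were used is not given in the sources used here. Values were deposited as FPKM, per the file headers, and their steps gave the reads behind them, with all 23897 genes above 0 whole within 0.002 of a read (more for large counts).

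Differences were fitted with limma-trend (limma 3.58.1, R 4.3.3) on log2(FPKM + 1), which understates the change of low genes, for genes with a mean of at least 0.5 FPKM. Benjamini-Hochberg adjustment ran over all genes, with a threshold of 0.05, and intervals are at 95%. Because the lengths implied by FPKM are not the genes' own, the filter and the pseudocount of 1 weigh genes unevenly. Lengths and GC content came from GENCODE 29, and lowess (span 0.3) made the GC and length correction. The fit was tested on simulated data.

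Named were SCML4, well-known members, in each family the member with most reads and the 2 of smallest p (4 for DNAJC), and 2 of each partner list. Some genes that this rule or the marker lists hold are not reported here. HSPA4, HSPA14, CCT2, CCT3, CCT5, CCT8, DNAJB6, DNAJC8, DNAJC10, DNAJC13, HSPB6, HSPB11, HSF1, ATF4 and DDIT3 were named after their values were seen. The members and lists were chosen with earlier results of these data known.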

Additional observations from a re-analysis of the deposited data

How the results depend on the processing

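No chaperone gene was called under any of the 22 alternatives. The alternatives on reads tested 74 members and left out HSPA6, which had too few reads for their filter. The number of all genes called was 0 in the fit as reported. It was 7 with no filter, 4 with no intensity trend, 1 with library weights, 1 each by limma-trend and limma-voom on the reads, 14 by limma-voom with library weights, and 3 after the GC and length correction. It was 14 by limma-trend on the reads with EV replicate 1 left out, an alternative chosen after seeing the data. The cause of these shifts was not tested.

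Leaving out a library moved the median of the members between -0.0479, without SCML4 replicate 1, and 0.0414, without SCML4 replicate 3. Of the 52 genes named by rule, 12 with differences near 0 changed sign when a library was left out. ATF4, DDIT3, CCT2, CCT3, DNAJC8, DNAJC10 and HSPB11, named outside the rule, did so too. Their ranges over the 6 such fits were -0.112 to 0.115 for HSP90AB1, -0.171 to 0.0639 for HSPA8, -0.0546 to 0.0558 for HSPA5, -0.169 to 0.0199 for HSPA9, -0.215 to 0.0555 for HSPD1, -0.188 to 0.0553 for HSPE1, -0.0698 to 0.128 for TCP1, -0.0566 to 0.117 for PDIA4, -0.0313 to 0.0944 for PDIA6, -0.024 to 0.0523 for ATF6, -0.0605 to 0.0516 for ERN1 and -0.0856 to 0.121 for DNAJB1. HSP90AB1 was at 0.000182 after TPM scaling. Quantile normalization gave 0.00893 for HSPA5, -0.000158 for TCP1 and -0.011 for ATF6. PDIA4 and DNAJB1 were at -0.023 and -0.035 with library weights, at -0.021 and -0.027 by limma-voom with library weights, at -0.0034 and -0.022 after the GC and length correction, and at -0.057 and -0.066 on the reads without EV replicate 1.

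With replicate number as a block, 0 genes and 0 members were called, 2 members had an unadjusted p under 0.05 and the lowest adjusted p of a member by limma-trend was 0.982. Same-numbered libraries did not deviate together (correlations -0.0187, -0.0469 and -0.00999), so the numbers were not taken as pairs. Members with few reads, such as HSPA6 and HSPB9, are limited by depth.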
